A study of Mus musculus with 24 samples.

Results

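The 10 genes described here are Th, Cdhr1, Eomes, Scgn, Dlx2, Dlx5, Pbx3, Stoml3, Frzb and Calb2. They are genes of olfactory bulb cells or, for Stoml3, of the olfactory sensory neurons whose axons reach the bulb. All 10 were measured in arrays of mouse cerebral cortex, hippocampus and cerebellum. They were selected on measured values: in the cortex, the arrays of knockout animals 1 and 4 (KO 1 and KO 4) read far above the other 6 cortex arrays for these genes. They make up 10 of the 19505 gene symbols on the array, and each was read by 1 row of the value table. Cortex values of the 10 genes, WT arrays included, therefore describe the choice and are given with no test, whereas the hippocampus and cerebellum arrays had no part in it. In the cortex, the 10 genes lay 1.52 to 4.22 log2 units higher in the lower of KO 1 and KO 4 than in the highest of the other 6 arrays. In the hippocampus and cerebellum of the same animals 0 of the 10 did so, where 3.15% and 2.64% of all rows did, so this count is near the background.

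The study measured messenger RNA on 24 arrays, with 4 arrays in each of 6 groups: the 3 regions of wild-type (WT) mice and of mice whose liver lacks glutamine synthetase, an enzyme that binds ammonia to glutamate. Animals are numbered 1 to 4 within each genotype, and the same numbers recur in the 3 regions, so that KO 1 of the cortex and KO 1 of the hippocampus come from 1 animal. The series asks how raised ammonia in the blood alters transcripts of the brain. The sources used here do not give the strain, age or sex of the mice, the promoter that drove deletion in the liver, or how the cortex was dissected. The deletion concerns liver cells, so it cannot be checked in brain RNA. No array of olfactory bulb is among those analysed here, so the name olfactory bulb genes rests on textbook knowledge of where these genes are made.

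Values are the authors' log2 values, and a difference of 1 is a 2-fold difference on that scale. Array medians lay between 8.72 and 8.82, and arrays of a group correlated with each other at 0.980 to 0.996 over all rows. The number of arrays, 4 per group, limits the precision. The region labels were set against marker lists in WT tissue with limma on the 20 arrays other than cortex KO: 11 of 11 cerebellar granule and Purkinje cell genes were called higher in cerebellum than in either other region, and 7 of 9 hippocampal neuron genes were called higher in hippocampus than in cortex. Of 12 neocortical projection neuron genes, 9 were called lower in cerebellum than in cortex. In hippocampus only 4 of the 12 were called lower than in cortex, and 2 were called higher. In the cerebellum the array of KO 3 stood apart: its granule and Purkinje cell genes averaged 13.83, against 14.88 to 15.42 on the other cerebellum arrays, and genotype values in cerebellum are therefore also given without it.

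The olfactory bulb is the forebrain structure that receives the axons of olfactory sensory neurons from the nose. Its output cells, the mitral and tufted cells, are glutamatergic, and they are surrounded by GABAergic granule and periglomerular interneurons, some of which also make dopamine. These interneurons are replaced throughout life by neuroblasts that migrate forward from the wall of the lateral ventricle and depend on homeodomain factors of the Dlx family. Th encodes tyrosine hydroxylase, the rate-limiting enzyme of dopamine synthesis. Cdhr1, a cadherin first known from photoreceptors, and Eomes, a T-box transcription factor also called Tbr2, mark mitral and tufted cells. Dlx2, Dlx5 and Pbx3 are homeodomain transcription factors of bulb interneurons, and Scgn (secretagogin) and Calb2 (calretinin) are calcium-binding proteins of subsets of the same interneurons. Stoml3 is a stomatin-domain membrane protein of olfactory sensory neurons and mechanosensory neurons, and Frzb is a secreted antagonist of Wnt signalling.

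The start regions of 4 of the genes are shown because these genes were high together in 2 of the cortex arrays and cover the enzyme, both output neuron markers and an interneuron factor. RefSeq promoters (build GRCm38.p6) were matched for 7 of the 10 genes by symbol; Dlx5, Pbx3 and Calb2 were not matched. Each line gives the 250 bases before the start of transcription, 5′ to 3′ on the strand of the gene, with matches to the searched motifs in capitals. The motifs were the cyclic AMP response element TGACGTCA, the homeodomain core TAATT and the palindromic E-box CACGTG, each searched on both strands, and a TATA core, TATAA, searched on the strand of the gene. The homeodomain core reads AATTA where it lies on the opposite strand. Th lies on the minus strand at chr7:142899996-142900245, Cdhr1 on the minus strand at chr14:37098348-37098597, Eomes on the plus strand at chr9:118477939-118478188 and Dlx2 on the minus strand at chr2:71546755-71547004.
Th: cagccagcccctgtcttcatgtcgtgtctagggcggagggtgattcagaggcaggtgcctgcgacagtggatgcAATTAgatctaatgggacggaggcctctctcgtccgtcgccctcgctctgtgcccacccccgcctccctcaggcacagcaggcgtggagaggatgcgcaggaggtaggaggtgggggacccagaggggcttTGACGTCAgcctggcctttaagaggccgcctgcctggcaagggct
Cdhr1: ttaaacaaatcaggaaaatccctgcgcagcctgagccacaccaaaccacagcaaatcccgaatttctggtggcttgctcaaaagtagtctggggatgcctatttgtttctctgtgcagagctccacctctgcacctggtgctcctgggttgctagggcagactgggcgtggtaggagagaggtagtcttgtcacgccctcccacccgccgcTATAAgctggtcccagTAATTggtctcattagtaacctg
Eomes: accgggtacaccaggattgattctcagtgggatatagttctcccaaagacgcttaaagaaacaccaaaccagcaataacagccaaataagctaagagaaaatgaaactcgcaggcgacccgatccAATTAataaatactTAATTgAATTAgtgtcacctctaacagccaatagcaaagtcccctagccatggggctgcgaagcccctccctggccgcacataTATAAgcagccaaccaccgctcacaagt
Dlx2: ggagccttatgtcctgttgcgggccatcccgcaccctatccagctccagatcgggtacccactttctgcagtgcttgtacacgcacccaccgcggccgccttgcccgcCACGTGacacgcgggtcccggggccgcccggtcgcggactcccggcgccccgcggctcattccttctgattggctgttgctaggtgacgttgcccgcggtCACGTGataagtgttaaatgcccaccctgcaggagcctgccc

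The promoter of Th held the cyclic AMP response element 45 bases before the start, a motif found in 1.55% of the 32851 promoters of the same length in the table. Of the 7 matched genes, only Th held it. The homeodomain core occurred in Th, Cdhr1 and Eomes, 3 of the 7, against 8223 of the 32851 promoters, and Eomes held 3 matches that do not overlap each other. Cdhr1 and Eomes held the TATA core, 39 and 28 bases before the start, against 5255 of the 32851. Dlx2 held 2 E-boxes, 142 and 42 bases before the start, a motif present in 6.02% of promoters. The share of G and C ran from 46.4% to 66.4% in the 7 genes, with a median of 52.4% over all promoters. A match describes the letters in this window and not the binding of a factor.

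Th, the dopamine enzyme, had the widest separation among the 19505 genes. In the cortex its value was 8.40, 8.48, 8.61 and 8.32 in WT 1 to 4, and 14.18, 9.00, 8.66 and 13.23 in KO 1 to 4. KO 1 and KO 4 stood alone, 53.0-fold and 27.4-fold above the WT mean of 8.45 ± 0.12 (SD, n = 4) on the deposited scale, while KO 2 and KO 3 were slightly above the highest WT array. The lower of the high pair, KO 4, exceeded the highest of the other 6 arrays, KO 2, by 4.22 (rank 1 of 19505).

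Cdhr1 and Eomes, the mitral and tufted cell markers, showed the same separation. Cdhr1 read 6.64, 6.57, 7.67 and 7.19 in cortex of WT 1 to 4, and 12.52, 7.29, 7.24 and 11.83 in KO 1 to 4. KO 2 and KO 3 lay within the WT range, and KO 4 was 4.15 above the highest of the other 6 arrays, WT 3 (rank 2). Eomes read 7.18, 6.96, 6.96 and 7.27 in the WT arrays, and 11.70, 7.45, 7.26 and 11.37 in KO 1 to 4. The other 6 arrays spanned only 0.49, and KO 4 lay 3.92 above the highest of them (rank 5). KO 1 and KO 4 were closer to each other for Eomes, 0.33 apart, than for Cdhr1, 0.69 apart.

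The homeodomain factors differed among themselves in how far the pair stood out. Pbx3, a partner of Hox and Meis proteins, read 8.15, 8.04, 9.05 and 8.95 in cortex of WT 1 to 4 and 13.44, 8.33, 8.86 and 13.07 in KO 1 to 4, a gap of 4.02 (rank 3). The WT arrays split into WT 1 and WT 2 near 8.1 and WT 3 and WT 4 near 9.0, with KO 2 and KO 3 in the same range. Dlx2, which promotes the GABAergic fate in the ventral forebrain, read 8.33, 8.36, 8.58 and 7.99 in WT arrays and 11.99, 8.14, 8.44 and 11.10 in KO 1 to 4. Its gap was 2.52 (rank 18), with KO 1 at 12.8-fold and KO 4 at 6.88-fold of the WT mean of 8.31 ± 0.24 (SD, n = 4). Dlx5, which acts downstream of Dlx2 in the same lineage, read 8.86, 9.06, 9.41 and 8.85 in WT arrays and 11.55, 9.06, 9.05 and 10.93 in KO 1 to 4. Its gap of 1.52 (rank 48) was the smallest of the 10 genes, and KO 2 and KO 3 lay within the WT range.

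Both calcium-binding proteins separated the same arrays from very different backgrounds of spread. Scgn read 5.58, 5.51, 5.41 and 5.70 in cortex of WT 1 to 4, and 10.24, 5.38, 5.46 and 9.42 in KO 1 to 4. The other 6 arrays lay within 0.32 of each other, and the gap was 3.72 (rank 6). Calb2 read 8.85, 8.54, 10.54 and 10.52 in WT arrays and 14.63, 9.51, 9.73 and 14.01 in KO 1 to 4. WT 1 and WT 2 lay below WT 3 and WT 4. The other 6 arrays spanned 2.0, the widest spread among them for any of the 10 genes, and the gap above it was 3.47 (rank 8).

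Stoml3 and Frzb, the remaining pair, shared the pattern at different sizes. Stoml3 read 7.31, 7.08, 7.42 and 7.33 in cortex of WT 1 to 4 and 13.00, 7.75, 8.17 and 12.14 in KO 1 to 4, a gap of 3.97 (rank 4). Here KO 2 and KO 3 also lay above all 4 WT arrays, by at most 0.89 over the WT mean. Frzb read 9.39, 9.05, 10.15 and 8.36 in WT arrays and 12.12, 9.48, 9.70 and 12.01 in KO 1 to 4. The WT arrays were spread widely, from WT 4 to WT 3, and the gap was 1.86 (rank 34), with KO 1 and KO 4 only 0.11 apart.

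**Figure D1:**
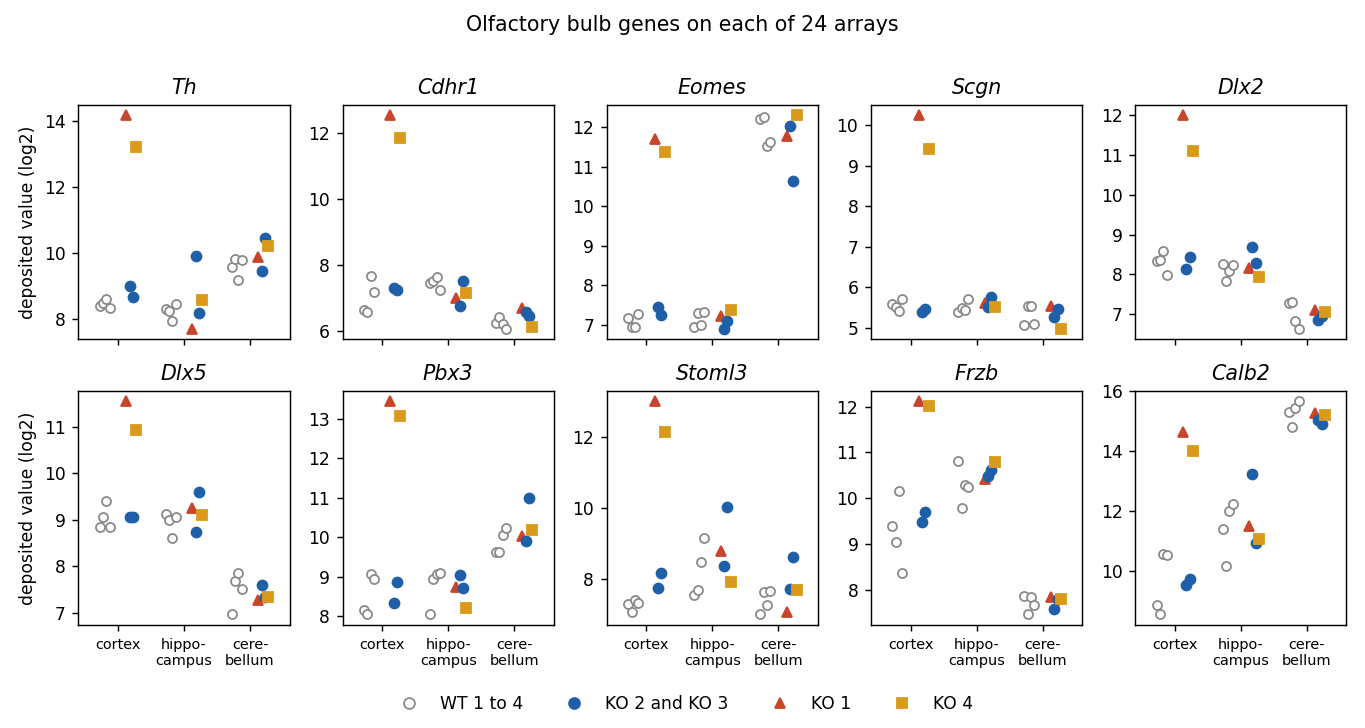
Deposited log2 value (vertical axis) of each of the 10 genes on each array, by region (horizontal axis); open circles are WT arrays, blue circles KO 2 and KO 3, red triangles KO 1 and orange squares KO 4, with no averaging. KO 1 and KO 4 lie above the other 6 arrays in the cortex for all 10 genes, and in 0 of the 10 in hippocampus or cerebellum, where Eomes and Calb2 are high in every cerebellum array.

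Over the 10 genes the gap had a median of 3.82, while over all 19572 rows with a gene symbol its median was -0.34 and its 99th percentile 0.63. KO 1 was above KO 4 for 10 of 10 genes, by 0.11 to 0.95 (median 0.66), against a median of 0.03 over all rows. KO 1 and KO 4 both exceeded the other 6 cortex arrays in 2068 rows, or 10.6%, and did so by at least 1 in 96 rows, or 0.49%; the 10 genes were chosen from this end of the distribution. In the other direction, 1531 rows (7.82%) had both arrays below the other 6, and 0 rows (0%) by at least 1. The furthest below were Kcnab1 by 0.84, Caln1 by 0.80 and Chl1 by 0.78. For this pair the separation was larger upwards than downwards over all rows. The pair itself was singled out for reading high, so this difference in direction is a description and not a test.

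**Figure D2:**
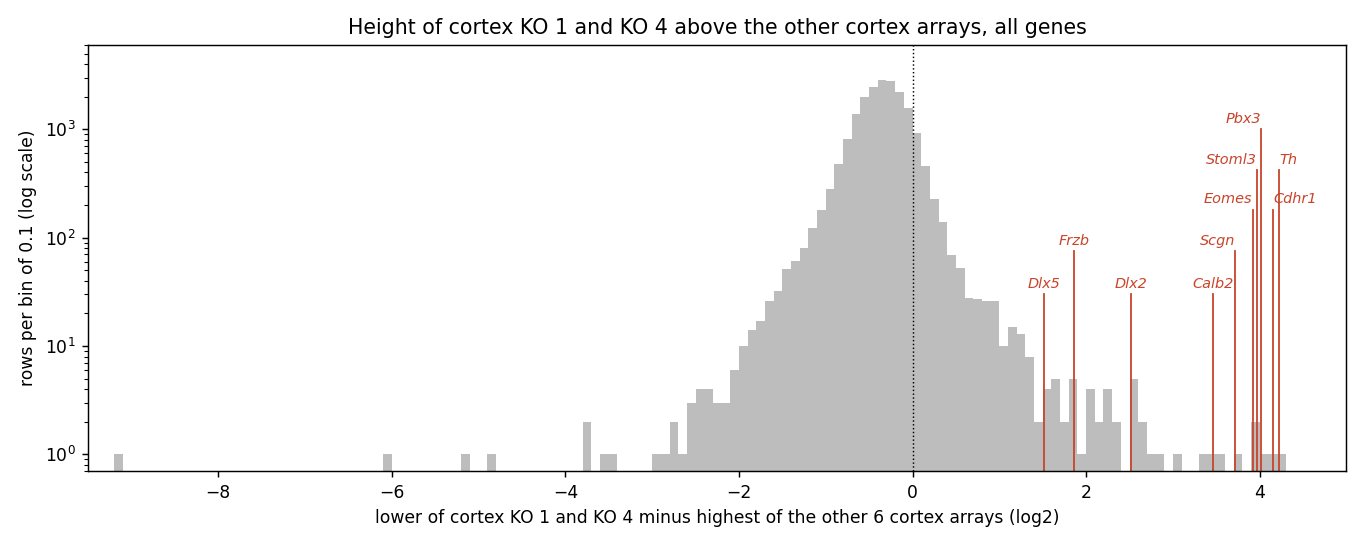
Histogram of the gap, the lower of cortex KO 1 and KO 4 minus the highest of the other 6 cortex arrays (log2, horizontal axis), over 19572 rows, with rows per bin on a log scale; red lines mark the 10 genes and the dotted line marks 0. The bulk of the rows lies below 0 with a median of -0.34, and the 10 genes lie between 1.52 and 4.22.

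**Figure D3:**
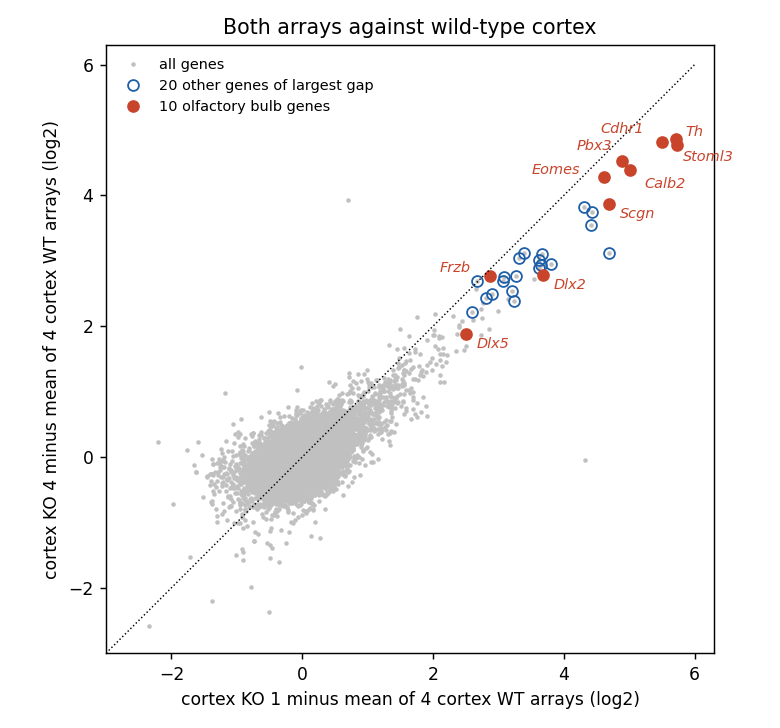
Difference of cortex KO 1 (horizontal) and cortex KO 4 (vertical) from the mean of the 4 cortex WT arrays (log2) for every gene (grey), with the 10 genes in red, the 20 other genes of largest gap circled in blue and equality as a dotted line. The 10 genes lie to the right of the dotted line, KO 1 being higher than KO 4 for each of them.

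Read as a group comparison, the cortex KO arrays exceeded the WT arrays by 1.10 to 2.98 (median 2.36) over the 10 genes, and the SD of the 4 KO arrays was 1.29 to 2.85. In limma over 24 arrays 0 of the 19572 rows (0%) were called between genotypes in the cortex at an adjusted p under 0.05, with 1459 rows at an unadjusted p under 0.05 and a smallest adjusted p of 0.366. Of the same 19572 rows, 55 were called without KO 2 and 34 without KO 3. Both of those fits keep KO 1 and KO 4, the arrays that chose the genes, so these counts are not read as an effect of genotype. Without KO 1 and KO 4, the difference between KO 2 and KO 3 and the WT arrays ran from -0.13 for Scgn to 0.68 for Stoml3, with a median of 0.15. That fit also called 0 rows, with 693 at an unadjusted p under 0.05.

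Other genes of olfactory bulb cells were high on the same arrays. These lists were written with earlier results of these data known, and counts below leave out the 10 genes. Some genes are on several lists, among them Dlx1, Etv1 and Calb1. KO 1 and KO 4 were both above the other 6 arrays in 10.6% of all rows, by at least 1 in 0.49%, and both below in 7.82%. Of 18 further genes of bulb interneurons, 15 (83.3%) were above the other 6 arrays in both KO 1 and KO 4, 8 of them by at least 1, and 1 was below. They include Tshz1, a zinc finger factor of these neurons, at 13.44 and 13.16 in KO 1 and KO 4 against at most 10.30 elsewhere, and Sp8, another zinc finger factor, at 10.71 and 9.86 against at most 7.66. Meis2, a homeodomain partner of Pbx proteins, stood 2.06 above, and Dlx1 1.75 above. Averaged over these 18 genes, KO 1 read 11.89 and KO 4 11.58, while the other 6 cortex arrays ran from 10.23 to 10.59.

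Markers of other cells of the olfactory system were mixed. Of 7 further genes of bulb projection neurons 2 were above, Tbx21 by 0.46 and Reln by 0.06, and 0 by at least 1. Their average of 9.09 in KO 1 and 8.60 in KO 4 lay within the 8.39 to 9.19 of the other 6 arrays. Of 9 migrating neuroblast genes 5 were above. Among them were Dcx, a microtubule protein of immature neurons, by 2.10, and Dlx1, also on the bulb interneuron list, by 1.75. Cd24a was above by 0.74 and Sox4 by 0.73. Of 7 olfactory ensheathing cell genes 3 were above: Fabp7, a fatty acid binding protein of glia, by 3.09, Mybpc1 by 0.57 and Matn2 by 0.03. Fabp7 read 17.08 in KO 1 and 16.20 in KO 4. Of 10 olfactory sensory neuron genes 5 were above, led by S100a5 with a gap of 2.65 and Omp, the olfactory marker protein, with a gap of 1.68. Omp read 10.18 in KO 1 and 9.90 in KO 4 and at most 8.22 on the other 6 arrays.

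Dopamine genes other than Th stood little apart or not at all. Of 9 further genes of dopamine synthesis and handling 3 were above, Slc6a3, the dopamine transporter, by 0.39, Slc18a2, the vesicular monoamine transporter, by 0.28, and Pts by 0.08. Ddc, which follows Th in dopamine synthesis, read 8.17 in KO 1 and 8.10 in KO 4, inside the 8.04 to 8.33 of the other arrays. Of 10 genes of midbrain dopamine neurons only Slc6a3 was above, and the list averaged 9.08 in KO 1 and 8.74 in KO 4 against 8.67 to 9.08 elsewhere.

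Most lists of other cells that a cortex sample could hold had few or no genes above the other 6 arrays. Over all rows 10.6% were above and 7.82% below, so most of these counts lay near the background. For striatal projection neurons 0 of 10 genes were above and 1 below, and for cortical interneurons 0 of 10 above and 2 below. For hippocampal neurons 0 of 9 were above and 2 below, and for oligodendrocytes 0 of 8 above and 2 below. The hippocampal neuron list averaged 8.46 in KO 1 and 8.40 in KO 4, below the 8.54 to 8.83 of the other 6 arrays. Neocortical projection neuron genes averaged 11.87 in KO 1, 12.19 in KO 4 and 12.08 to 12.41 on the other 6 arrays, with 2 of 12 genes above, Cux1 and Bcl11b, and 3 below. KO 1 thus had the lowest average of the 8 arrays for that list, while KO 4 lay within the others. Microglia and vessel and meninges lists had 0 of 7 and 0 of 8 genes above, the microglia list averaging 9.99 in KO 1 and 9.98 in KO 4 against 10.07 to 10.21 elsewhere, and the astrocyte and choroid plexus lists 1 of 7 each. Of 11 cerebellar granule and Purkinje cell genes 3 were above. Zic1, a zinc finger factor also made in the bulb, was above by 1.57 and Cbln1 by 0.39. Etv1, also on the bulb interneuron list, was above by 0.14. The cerebellar list averaged 9.56 in KO 1 and 9.62 in KO 4, above the 9.23 to 9.47 of the other 6 arrays. Of 4 further unipolar brush cell genes, apart from Eomes and Calb2, 1 was above, Plcb4 by 0.05, and 1 below, and their average of 9.28 and 9.43 lay within the 9.03 to 9.94 of the others. With the 10 genes left out, some cell type lists averaged higher in KO 1 and KO 4 than on the other 6 arrays. These were the bulb interneuron, neuroblast, ensheathing cell, sensory neuron and cerebellar lists, while the hippocampal neuron and microglia lists averaged lower. Of the lists of gene families, those of Dlx, of Pbx and Meis and of stomatin genes also averaged higher. The higher averages could rest on few genes. By at least 1, 8 of 18 bulb interneuron genes and 2 of 9 neuroblast genes were above. So were 1 of 7 ensheathing cell genes (Fabp7) and 2 of 10 sensory neuron genes (S100a5 and Omp). Of the 11 cerebellar genes only 1 was, Zic1. The amount of olfactory bulb tissue in each dissection was not measured, and its part in these values was not tested. In bulk tissue, fewer cells of a type and less RNA per cell cannot be told apart.

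**Figure D4:**
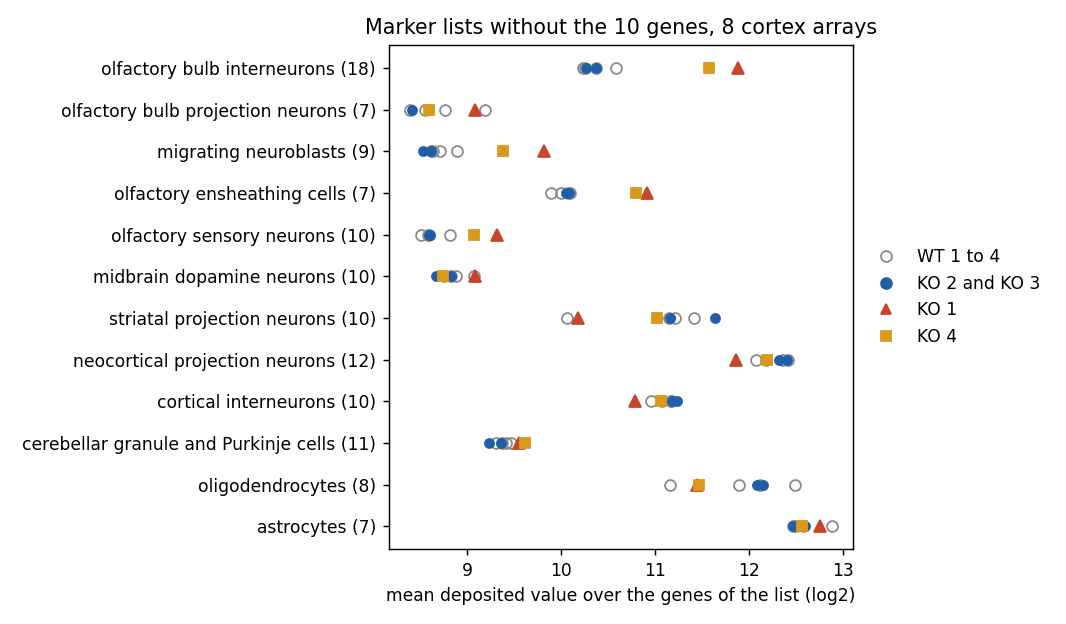
Mean deposited log2 value (horizontal axis) over the measured genes of 12 marker lists (rows, number of genes in brackets, the 10 genes left out) on each of the 8 cortex arrays; open circles are WT, blue circles KO 2 and KO 3, the triangle KO 1 and the square KO 4. For bulb interneurons KO 1 lies at 11.89 and KO 4 at 11.58 while the other 6 arrays lie between 10.23 and 10.59, and for neocortical projection neurons KO 1 lies at 11.87, below the others.

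Some relatives of the 10 genes were above the other 6 cortex arrays in both KO 1 and KO 4, as were 10.6% of all rows. The counts of 1 of 6 T-box genes, 1 of 3 stomatin genes and 2 of 9 Wnt antagonists are too small to read against that share. In the Dlx family, Dlx1 and Dlx6 were above by 1.75 and 0.42 and the other two were not. Meis2 and Meis1, which form complexes with Pbx proteins, were above by 2.06 and 1.24, whereas Meis3, Pbx2 and Pbx4 were not. Among 6 further T-box genes only Tbx21 was above. Calb1, the calcium-binding relative of Calb2 and Scgn, went the other way: it read 10.55 in KO 1 and 11.34 in KO 4, and 11.47 to 11.99 on the other arrays. Stom, the founding stomatin, stood 0.42 above, and of 9 further secreted Wnt antagonists Sfrp1 stood 0.39 and Wif1 0.02 above.

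The 20 other genes whose cortex values were most like those of the 10, by size of the gap, ran from Cpa6, a carboxypeptidase, at 3.54 to Dcx at 2.10. In order they were Cpa6, Frmd7, Fabp7, Tshz1, Dnah11, Map3k1, S100a5, Slco5a1, Abi3bp, Inpp5j, Lgr6, Lgr5, Syt6, Cacng5, Pcbp3, Ablim3, Ndnf, Sp8, Vipr2 and Dcx. Of these, 5 were on one of the olfactory lists (Fabp7, Tshz1, S100a5, Sp8 and Dcx) and 15 were on no list. Cpa6 read 10.88 in KO 1 and 10.41 in KO 4, and 6.22 to 6.86 on the other arrays. Lgr5, a receptor for R-spondins, read 13.00 and 12.67, and 9.58 to 10.30 on the others. KO 1 was higher than KO 4 for 19 of the 20, Lgr6 being the exception with 10.15 in each.

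The same count was made in the hippocampus and cerebellum of KO 1 and KO 4. In the hippocampus 616 of the 19572 rows (3.15%) had both arrays above the other 6, and in the cerebellum 517 rows (2.64%). Of the 10 genes, 0 did so in either region, a count near these background shares. In both regions 0 of the 10 had both arrays below the other 6, for which no share over all rows was taken. The nearest approach was a gap of -0.10 in the hippocampus and -0.06 in the cerebellum. The average of the 10 genes was 8.44 and 8.36 in hippocampus of KO 1 and KO 4, inside the 8.19 to 8.76 of all hippocampus arrays, and 8.85 and 8.89 in cerebellum, inside 8.71 to 8.96.

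Genotype was then compared in the 2 regions whose arrays did not choose the genes, with limma on the 20 arrays other than cortex KO and Benjamini-Hochberg adjustment over all 19572 rows. In the hippocampus 0 rows (0%) were called, with 400 rows and 0 of the 10 genes at an unadjusted p under 0.05. The 10 differences, KO minus WT, ran from -0.35 (SE 0.20) for Cdhr1 to 0.56 (SE 0.37) for Stoml3, with a median of 0.19 against 0.01 over all rows, and every adjusted p was 1. In the cerebellum 0 rows (0%) were called, with 1868 rows and 0 of the 10 genes at an unadjusted p under 0.05. There the differences ran from -0.22 (SE 0.24) for Eomes to 0.41 (SE 0.30) for Th, with a median of 0.03 against -0.00 over all rows and adjusted p from 0.617 to 0.995. Without KO 3 of the cerebellum they ran from -0.15 for Calb2 to 0.26 for Th, Eomes turned to 0.12, and 0 rows were called (adjusted p 0.999 for each of the 10 genes). The genotype difference itself was called different between the 2 regions for 0 rows (0%), with 1044 at an unadjusted p under 0.05, and the smallest p of the 10 genes was that of Cdhr1, 0.0489 before and 0.873 after adjustment in limma. The standard errors of the 10 genes were 0.13 to 0.47 within a region, which bounds the differences these arrays can resolve.

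Single arrays stood high in hippocampus for some genes, but not the same animals as in cortex. Th read 8.28, 8.24, 7.94 and 8.46 in hippocampus of WT 1 to 4 and 7.70, 9.92, 8.19 and 8.56 in KO 1 to 4, so KO 1, the highest in cortex, was the lowest here and KO 2 the highest. Stoml3 read 7.57, 7.68, 8.48 and 9.14 in WT arrays and 8.78, 8.37, 10.03 and 7.91 in KO arrays, with KO 3 highest. Calb2 read 11.40, 10.16, 11.98 and 12.22 in WT arrays and 11.49, 13.23, 10.92 and 11.06 in KO arrays, with KO 2 highest. WT and KO ranges overlapped for each of these genes.

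Regional levels in WT tissue were compared next, to place the 10 genes among brain regions. The WT cortex arrays were the low side when the genes were chosen, so differences from cortex are given as descriptions, with no test, and only cerebellum against hippocampus was tested. A gene was called with limma at an adjusted p under 0.05 and at least 2-fold. Between cerebellum and hippocampus 8 of the 10 genes were called: Eomes, Calb2, Th and Pbx3 higher and Frzb, Dlx5, Cdhr1 and Dlx2 lower in cerebellum. Over all rows, 4% were called higher and 5.87% lower. For the marker lists above, set against cortex, the shares over all rows were 4.52% higher and 5.47% lower in cerebellum, and 0.792% higher and 0.623% lower in hippocampus.

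Eomes, which in the cerebellum is known from unipolar brush cells, read 12.20, 12.25, 11.52 and 11.63 in cerebellum of WT 1 to 4 and 6.94, 7.30, 7.01 and 7.33 in hippocampus. The cerebellum exceeded the hippocampus by 4.76 (SE 0.24, n = 4 per group, adjusted p = 4.06e-13) and the WT cortex arrays by 4.81. Cerebellum of KO 1 to 4 read 11.77, 12.02, 10.63 and 12.29. The cortex arrays of KO 1 and KO 4, at 11.70 and 11.37, were thus within the range of the cerebellum arrays for this gene, while the cerebellar granule and Purkinje cell genes averaged 9.56 and 9.62 on those arrays, 9.23 to 9.47 on the other cortex arrays and 13.83 to 15.42 on the cerebellum arrays.

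Calb2, a calcium buffer of cerebellar granule cells, read 15.30, 14.80, 15.43 and 15.65 in WT cerebellum. The arrays of KO cerebellum read 15.25, 15.02, 14.90 and 15.19, so that all 8 cerebellum arrays lay above KO 1 of the cortex at 14.63. The cerebellum exceeded the hippocampus by 3.86 (SE 0.47, n = 4 per group, adjusted p = 6.49e-07) and the WT cortex arrays by 5.68. The hippocampus read 1.82 above WT cortex, and the groups overlapped, hippocampus WT 2 at 10.16 lying below cortex WT 3 and WT 4.

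Th read 9.59, 9.82, 9.19 and 9.79 in WT cerebellum and 9.88, 9.46, 10.45 and 10.22 in KO cerebellum. It was higher in cerebellum than in hippocampus by 1.37 (SE 0.30, n = 4 per group, adjusted p = 0.000762) and read 1.15 above WT cortex. Every cerebellum array stood below both high cortex arrays. Pbx3 read 9.61, 9.63, 10.05 and 10.22 in WT cerebellum, 10.04, 9.91, 11.00 and 10.18 in KO cerebellum, and 8.07, 8.93, 9.06 and 9.08 in WT hippocampus, where WT 1 stood below the others. Its excess in cerebellum was 1.09 over hippocampus (SE 0.27, adjusted p = 0.00214) and 1.33 over WT cortex, with no test of the latter. The excess over hippocampus fell under 2-fold without hippocampus WT 1 (0.85) or cerebellum WT 4 (0.98).

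The Dlx factors were lowest in the cerebellum. Dlx2 read 7.28, 7.31, 6.82 and 6.63 in WT cerebellum and 8.26, 7.83, 8.09 and 8.23 in WT hippocampus. It fell by 1.09 in cerebellum against hippocampus (SE 0.17, n = 4 per group, adjusted p = 1.23e-05) and read 1.30 lower than WT cortex, a difference of -1.30. Without cerebellum WT 4 the difference from hippocampus was -0.97, under 2-fold. Dlx5 read 6.97, 7.68, 7.86 and 7.52 in WT cerebellum and 9.13, 8.99, 8.60 and 9.07 in WT hippocampus. It differed from hippocampus by -1.44 (SE 0.19, adjusted p = 1.16e-06) and from WT cortex by -1.54. The WT hippocampus differed from WT cortex by -0.21 for Dlx2 and -0.10 for Dlx5, and the arrays overlapped for both. In KO cerebellum Dlx2 ran from 6.86 to 7.11 and Dlx5 from 7.27 to 7.60, and in KO hippocampus from 7.92 to 8.69 and from 8.74 to 9.60.

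Among WT regions Frzb had its highest mean in the hippocampus. It read 10.81, 9.79, 10.29 and 10.25 in WT hippocampus, 10.42, 10.47, 10.62 and 10.78 in KO hippocampus and 7.86, 7.46, 7.84 and 7.66 in WT cerebellum, where the KO arrays ran from 7.58 to 7.85. The cerebellum was below the hippocampus by 2.58 log2 units, a difference of -2.58 (SE 0.24, n = 4 per group, adjusted p = 1.15e-08), and it differed from WT cortex by -1.53. The hippocampus read 1.05 above WT cortex, and the groups overlapped, cortex WT 3 at 10.15 lying above hippocampus WT 2.

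Cdhr1 read 7.44, 7.51, 7.64 and 7.24 in WT hippocampus and 6.26, 6.43, 6.20 and 6.07 in WT cerebellum. The groups did not overlap, and the cerebellum differed from the hippocampus by -1.22 (SE 0.20, n = 4 per group, adjusted p = 2.36e-05). From WT cortex it differed by -0.78. In KO mice Cdhr1 read 7.01, 6.75, 7.50 and 7.16 in hippocampus and 6.70, 6.59, 6.44 and 6.11 in cerebellum.

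Scgn and Stoml3 were not called between cerebellum and hippocampus. Scgn ran from 5.39 to 5.75 over the 8 hippocampus arrays and from 4.98 to 5.55 over the 8 cerebellum arrays, and cerebellum minus hippocampus was -0.20 (SE 0.13, adjusted p = 0.287 in limma). Its mean was among the dimmest 25% of rows, so it was left out where dim rows were filtered, and 9 of the 10 genes passed that filter. Stoml3 ran from 7.57 to 10.03 over the hippocampus arrays and from 7.01 to 8.63 over the cerebellum arrays, and the difference was -0.82 (SE 0.37, adjusted p = 0.0884). Without hippocampus WT 1 it was -1.04 with an adjusted p of 0.0435. Every Scgn value other than those of KO 1 and KO 4 in cortex was thus at most 5.75.

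When the cortex KO arrays, whose spread the choice of genes had widened, were added to the limma fit, the differences were the same and 4 of the 8 calls between cerebellum and hippocampus were lost, those of Th, Cdhr1, Dlx2 and Pbx3 (adjusted p 0.173, 0.212, 0.0941 and 0.261).

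**Figure D5:**
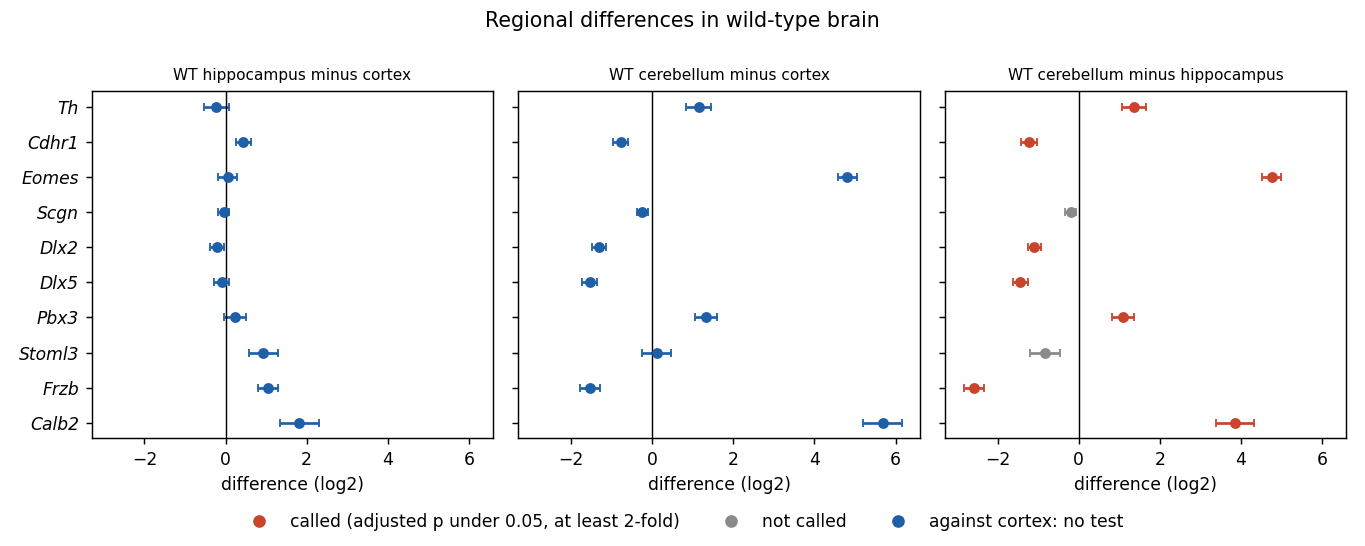
Difference between WT regions in log2 units (horizontal axis) for each of the 10 genes (rows), with bars of 1 standard error from limma on 20 arrays, 4 per group; between cerebellum and hippocampus, red points were called at an adjusted p under 0.05 and at least 2-fold and grey points were not, and blue points against cortex carry no test. Eomes and Calb2 lie far to the right in both cerebellum panels, at 4.76 and 3.86 against hippocampus, and Scgn and Stoml3 are grey.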

How the data were processed

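The deposited values are log2 expression values that the authors made with RMA (background correction, normalization between arrays, summary of probes), per the submitters' processing notes. The log base was read from the values (3.89 to 19.14), since the sources used here name no base, RMA version or genome build. The labels name both biotin and Cy3. In 291 of 22206 rows a value exceeds 16; none is a row of the 10 genes. Detection above background was not judged.

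The platform annotation gave 19572 rows a symbol; 2634 were left out. Values were used as deposited, unfiltered. The main fit (lmFit and eBayes of limma 3.58.1, R 4.3.3, 2-sided) used 20 arrays with 1 mean per group and left out cortex KO, so that no value that chose the genes entered the spread. Differences of the 10 genes from WT cortex were fitted too and are given without p-values. P-values were adjusted by Benjamini-Hochberg over 19572 rows. The fit was tested on simulated data. Alternatives covered scaling, a filter on dim rows, moderation, the arrays fitted, replicate blocks and leaving out each array.

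The 10 genes and all lists were chosen with earlier results of these data known. Also named are at most 4 genes of each list and the 20 other genes of largest gap; Pbx4 and the 3 genes furthest below were named after their values were seen. Animal numbers recur across regions, per the labels; deviations of the same animal correlated at -0.19 to 0.18 in WT and -0.15 to 0.30 in KO.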

Additional observations from a re-analysis of the deposited data

Results flagged for a closer look

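In WT hippocampus, Pbx3 read 8.07 in WT 1, apart from the other 3 arrays at 8.93 to 9.08, by Dixon's criterion for a lone value in a group of 4. It was the only such array among 60 groups examined (10 genes in 6 groups), and chance alone marks about 1 group in 20.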

How the results depend on the processing

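Equalizing array medians, filtering dim rows and fitting only the groups compared moved no direction and no call of the 10 genes. Repeating quantile normalization turned the sign of differences near 0: Scgn to 0.0111 (hippocampus minus cortex) and 0.0212 (KO minus WT in cerebellum), and Dlx2 to 0.0165 (KO minus WT in cerebellum). Of the 10 genes, those past the threshold between WT hippocampus and cortex, which rests on arrays that chose the genes and is not read as a test, went from 2 to 1 with trend and robust and to 0 with all 24 arrays, and those between cerebellum and hippocampus from 8 to 4 with all 24 arrays. Without a fold minimum 1475, 7008 and 6876 genes were called between hippocampus and cortex, cerebellum and cortex, and cerebellum and hippocampus, in place of 277, 1956 and 1931. The animal as a replicate block, random (consensus correlation 0.0095) or fixed, changed no call of the 10 genes, with 277 and 283 genes called between hippocampus and cortex. WT and KO animals share only a number (correlations -0.24 to 0.30); with that number as a replicate block 35 genes were called between genotypes in cerebellum in place of 0, and 0 of the 10.

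Leaving out 1 array at a time, differences that changed sign ranged as follows. KO minus WT in hippocampus ran from -0.28 to 0.50 for Calb2, -0.0599 to 0.10 for Eomes, -0.35 to 0.0487 for Pbx3 and -0.0763 to 0.66 for Th. In cerebellum it ran from -0.15 to 0.0792 for Dlx2, -0.43 to 0.12 for Eomes, -0.025 to 0.11 for Frzb and -0.0836 to 0.11 for Scgn. Hippocampus minus cortex ran from -0.16 to 0.0259 for Dlx5, -0.0081 to 0.12 for Eomes and -0.11 to 0.0044 for Scgn. There 0 to 2 of the 10 were past the threshold, and 236 to 323 of all 19572 rows. That count of the 10 rests on cortex arrays that chose the genes and is not read as a test. Genes called between genotypes in cortex ran from 0 to 55 (55 without KO 2, 34 without KO 3). Those 2 fits keep both KO 1 and KO 4, so their counts are not read as an effect of genotype. Rows with KO 1 and KO 4 at least 1 below the other cortex arrays ran from 0 to 1 (without WT 3). The cause of these changes was not tested. Averaging several rows per gene could not be run, each gene having 1 row. Signal over background was not measured here.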
